A study of Mus musculus with 6 samples.

Results

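miR-192, miR-194 and miR-215 are small RNAs encoded in a pair of short gene clusters, with miR-192 and miR-215 in different clusters and miR-194 in both. The levels of these 3 miRNAs were read in the lung of newborn mice kept in 95% oxygen or in room air. They were taken as every well of the deposited RT-PCR table that carries one of those 3 names, with minor strands left out. This gave 3 wells, 1 for each miRNA, out of 750 miRNA wells, and all 3 lie on the first of the 2 plates (cards) run for each sample. No minor-strand assay of these hairpins was analysed here.

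The study compared lungs at day 7 of life from mice placed in 95% oxygen at under 12 hours of age and kept there for 168 hours (hyperoxia, 3 samples) with lungs of the same age from mice in room air (control, 3 samples). Both arms had nursing dams that were exchanged daily between oxygen and air. The lung vessels were flushed with saline through the pulmonary artery before the right lung was frozen, and total RNA was reverse transcribed with pooled primers and pre-amplified for 12 cycles before the PCR. Neither strain nor sex is given in the sources used here. The labels do not tie the replicates to different animals or litters. The p-values below therefore cover the spread among these 6 samples only, part of which may be technical.

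A miRNA is a short RNA that pairs through its seed, bases 2 to 8, with sites in messenger RNAs and lowers their output. miR-192, miR-194 and miR-215 are best known from liver, kidney and intestinal epithelium, where hepatocyte nuclear factors drive them, and they are among the miRNAs that the tumour suppressor p53 raises after DNA damage. Raised experimentally, miR-192 and miR-215 slow the cell cycle and add to the p53 response. High oxygen damages DNA and activates p53 in lung cells, which is the reason to set these miRNAs beside miR-34a, the miRNA most closely tied to p53.

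The mature sequences, credited to RefSeq on build GRCm38.p6 and matched by name to the 5p arm of each hairpin (3 of 3 matched), show which of the 3 can share targets. The deposited table gives no assay sequence, so the arm rests on the names. Seeds are in capitals, and the sequences run 5′ to 3′.
mmu-miR-192-5p: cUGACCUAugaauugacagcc
mmu-miR-215-5p: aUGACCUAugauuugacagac
mmu-miR-194-5p: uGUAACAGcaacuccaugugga
miR-192 and miR-215 carry the same seed, whose complement in a target is UAGGUCA, and no other of the 1679 mature mouse names in the RefSeq table has it. Along their 21 bases they are the same at 18 (85.7%), and they differ, counting from the 5′ end and giving the miR-192 base first, by C1A, A12U and C20A. miR-194 has a different seed, which 1 mature name in the table carries and whose complement in a target is CUGUUAC. A reading of miR-192 and one of miR-215 therefore rest on assays that must tell apart 3 bases; whether either assay also reads the other miRNA was not tested.

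The genes lie in pairs, each with 1 copy of miR-194. The hairpins are shown to place the measured strand, in capitals, within each of the 4 precursors.
Mir192: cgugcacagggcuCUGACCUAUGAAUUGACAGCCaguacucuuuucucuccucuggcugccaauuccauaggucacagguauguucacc
Mir194-2: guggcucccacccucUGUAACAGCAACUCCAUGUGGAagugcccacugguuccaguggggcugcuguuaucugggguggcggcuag
Mir194-1: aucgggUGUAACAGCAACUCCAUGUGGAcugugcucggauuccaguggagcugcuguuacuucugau
Mir215: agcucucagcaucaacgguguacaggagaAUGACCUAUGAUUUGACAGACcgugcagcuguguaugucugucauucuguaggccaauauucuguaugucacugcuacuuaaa
Mir194-2 (chr19:6264643-6264728) and Mir192 (chr19:6264844-6264932) are separated by 115 bases on the plus strand of GRCm38.p6, in the interval between the protein-coding gene Atg2a and the long noncoding RNA gene Gm14963. Mir194-1 (chr1:185313319-185313385) and Mir215 (chr1:185313581-185313692) are separated by 195 bases, also on the plus strand, inside the span of Iars2, the mitochondrial isoleucyl-tRNA synthetase gene, which runs on the minus strand. Exon positions were not used here. Both copies of miR-194 give the same mature strand, so the miR-194 assay reads the sum of the clusters, while the mature strand of miR-192 is encoded in the chromosome 19 cluster and that of miR-215 in the chromosome 1 cluster.

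Levels are given first as threshold cycles (Ct), the number of PCR cycles needed to reach a set signal. The earlier the Ct, the more RNA was present, and each cycle is worth a fold of 2 when the PCR doubles the product fully. A Ct of 35 or more was treated as not detected, and all 3 miRNAs were detected in all 6 samples.

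mmu-miR-192 had a Ct of 21.36, 21.64 and 22.10 in room air replicates 1 to 3 and of 23.29, 21.87 and 22.35 in hyperoxia replicates 1 to 3. Hyperoxia replicate 1 was latest, and the groups overlapped, since hyperoxia replicate 2 came before room air replicate 3. mmu-miR-194 had a Ct of 21.66, 22.09 and 22.83 in the room air samples and of 23.65, 22.80 and 23.09 in the hyperoxia samples. Here too hyperoxia replicate 1 was latest, and the overlap was narrow, with hyperoxia replicate 2 just ahead of room air replicate 3. mmu-miR-215 was read much later, at 29.18, 28.46 and 29.68 in the room air samples and at 30.24, 29.12 and 28.87 under hyperoxia. Its groups overlapped widely.

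In every sample the order was miR-192 first, miR-194 next and miR-215 last. Assays differ in efficiency, so Ct differences between miRNAs only approximate differences in amount. Among the 307 to 319 miRNA assays detected per sample on the card, miR-192 ranked from place 131 to 155, counting from the lowest Ct, and miR-194 from 140 to 160, so both sat near the middle. miR-215 ranked from 259 to 280, and 11.7% to 17.2% of the detected assays were later than it.

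**Figure D1:**
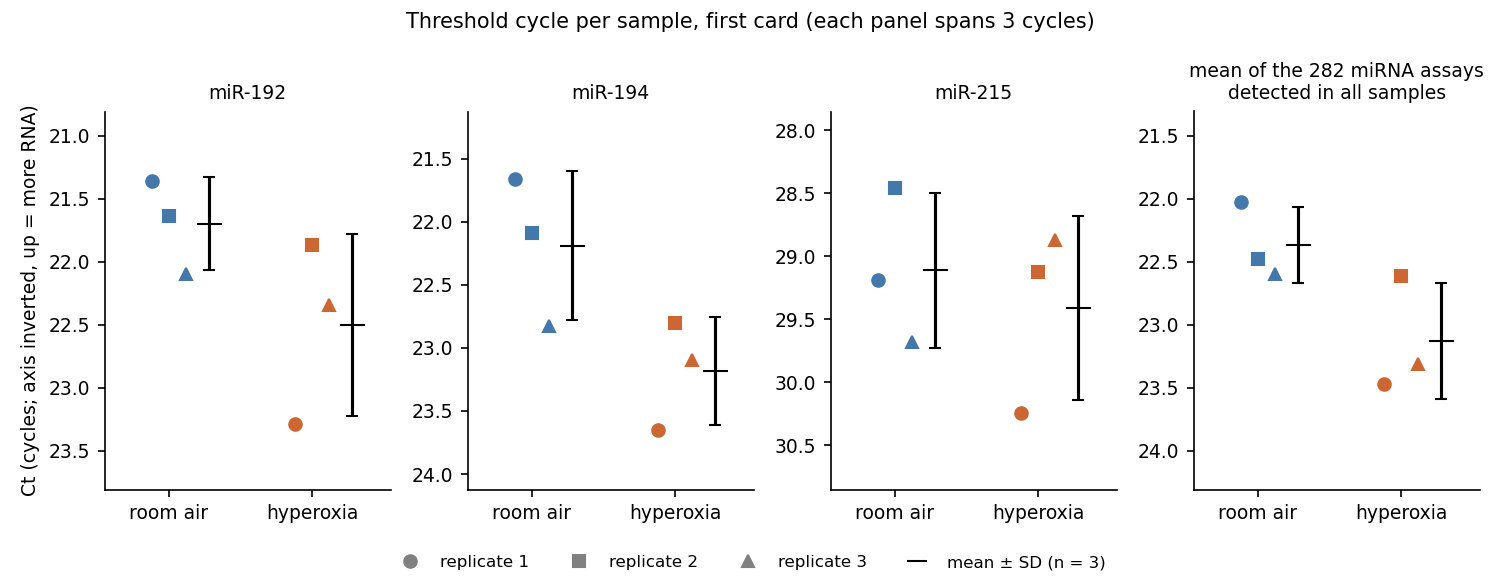
Ct per sample (vertical axes inverted, in cycles, each spanning 3 cycles) for the 3 miRNAs and for the average of the 282 first-card miRNAs that every sample detected. Symbols mark replicates and black bars the mean ± SD (n = 3); the mean Ct of all 4 panels is later in hyperoxia, and the groups overlap for the 3 miRNAs.

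The mean Ct was later in hyperoxia for each miRNA, and so was the card as a whole. miR-192 went from 21.70 ± 0.37 (SD, n = 3, room air) to 22.50 ± 0.72 (SD, n = 3), later by 0.80 cycles. miR-194 went from 22.19 ± 0.59 (SD, n = 3) to 23.18 ± 0.43 (SD, n = 3), later by 0.99 cycles. miR-215 went from 29.11 ± 0.61 (SD, n = 3) to 29.41 ± 0.73 (SD, n = 3), later by 0.30 cycles. The average Ct over the 282 miRNAs that every sample detected was itself later by 0.76 cycles, at 22.37 ± 0.30 (SD, n = 3) against 23.13 ± 0.45 (SD, n = 3). A change of a single miRNA is therefore stated relative to that mean, as a log2 relative abundance in which a higher value stands for more RNA.

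On this scale miR-192 did not differ between the groups beyond the spread of its samples. It stood at 0.66, 0.84 and 0.50 in room air and at 0.18, 0.74 and 0.96 in hyperoxia, so that the hyperoxia samples held both the lowest and the highest value. The log2 fold change of hyperoxia over room air was -0.04 ± 0.30 (SE), with a 95% interval from -0.78 to 0.70 and an adjusted p of 0.968 by limma with Benjamini-Hochberg adjustment over 551 assays. In folds the interval reaches from 0.582 to 1.62.

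miR-194 had a lower mean in hyperoxia and did not pass the test. It stood at 0.37, 0.40 and -0.23 in the room air samples and at -0.18, -0.19 and 0.22 under hyperoxia. Room air replicate 3 lay with the hyperoxia samples, and hyperoxia replicate 3 lay between the room air samples. The log2 fold change was -0.23 ± 0.29 (SE), or 0.852-fold, with a 95% interval from -0.95 to 0.49 and a limma adjusted p of 0.829.

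miR-215 had the largest estimate of the 3 and the widest error. It stood at -7.16, -5.98 and -7.08 in room air and at -6.77, -6.51 and -5.56 in hyperoxia. Hyperoxia replicate 3 was the highest sample, and room air replicate 2 came next, above both remaining hyperoxia samples. The log2 fold change was 0.46 ± 0.49 (SE), or 1.37-fold, with a 95% interval from -0.77 to 1.68 and a limma adjusted p of 0.787. The value was 0.07 without hyperoxia replicate 3, 0.25 without room air replicate 1 and 0.28 without room air replicate 3, and stood at 0.84 without room air replicate 2 and 0.70 without hyperoxia replicate 1.

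None of the 3 miRNAs passed the limma test, and over all 551 assays 0 passed at an adjusted p of 0.05 (0.00%), with 50 (9.07%) at an unadjusted p under 0.05. The unadjusted p of the 3 was 0.893, 0.458 and 0.390 in the order above. Groups that did not overlap were found for 0 of the 3, where 68 of the 302 tested first-card assays (22.5%) had them, 19 with hyperoxia higher (6.29%) and 49 with hyperoxia lower (16.2%). With 3 miRNAs, 0 non-overlapping ones is not a departure that can be read against that share. The replicates of miR-192 and miR-194 scattered less than most assays: the pooled SD within groups was 0.312 and 0.299 on the log2 scale, below the median of 0.421 over the 282 assays, while that of miR-215 was 0.649.

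The size of these values, and their sign, depends on the RNA taken as the reference. Against the mean of the U6 wells, U6 being the spliceosomal RNA often used for this purpose, the log2 fold changes were -0.06 ± 0.40, -0.24 ± 0.33 and 0.44 ± 0.53 (SE) for miR-192, miR-194 and miR-215. Against 5 control RNAs together, which were later by only 0.20 cycles in hyperoxia, they were -0.61 ± 0.53, -0.80 ± 0.52 and -0.11 ± 0.70 (SE), so that miR-215 changed sign. Without a reference they were -0.80, -0.99 and -0.30. miR-192 and miR-194 were negative under each of these references, and the limma adjusted p of the 3 miRNAs was at or above 0.238 under all 22 alternatives tried. The authors' deposited table gives folds of hyperoxia over room air of 0.775 for miR-192, 0.679 for miR-194 and 1.10 for miR-215, relative to the U6 wells in plate row A, which were later by 0.43 cycles. The first-card U6 wells in row B were later by 1.06 cycles, so the U6 wells did not agree. That shift exceeds the raw shifts of miR-192 and miR-194, so both would be positive relative to row B alone.

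**Figure D2:**
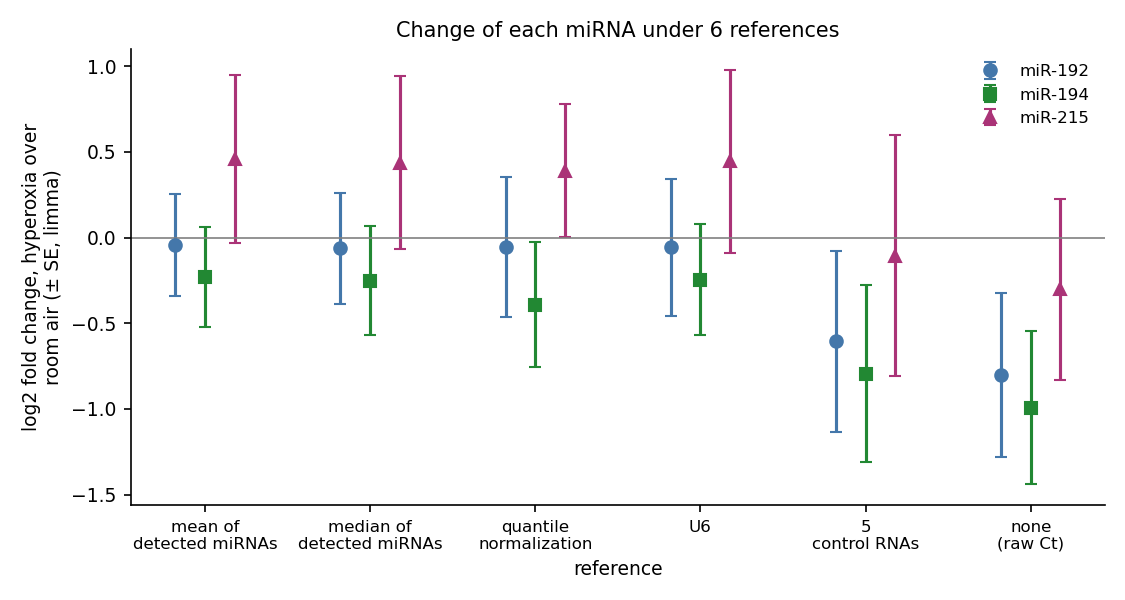
Log2 fold change of hyperoxia over room air (vertical axis, limma estimate ± SE, 3 samples per group) for the 3 miRNAs under 6 references. miR-194 stays below 0 under all 6, miR-192 moves from -0.04 to -0.80, and miR-215 lies above 0 with miRNA-based references and U6 and below 0 with the control RNAs or raw Ct.

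Differences within a sample need no reference and show whether the miRNAs moved unequally. The Ct of miR-194 minus that of miR-192 was 0.30, 0.45 and 0.73 cycles in room air and 0.36, 0.94 and 0.75 in hyperoxia. miR-194 thus trailed miR-192 by under 1 cycle in all 6 samples. The mean difference was 0.49 ± 0.22 cycles in room air against 0.68 ± 0.29 in hyperoxia (SD, n = 3 each), a shift of 0.19 cycles (exact permutation p of 0.4, two-sided; the smallest possible with 3 against 3 is 0.1).

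miR-215 trailed miR-192, which has the same seed, by 7.82, 6.82 and 7.59 cycles in room air and by 6.95, 7.25 and 6.53 in hyperoxia. The mean gap was narrower by 0.50 cycles in hyperoxia (7.41 ± 0.52 against 6.91 ± 0.37, SD, n = 3, exact permutation p of 0.3). miR-215 trailed miR-194, its neighbour in the chromosome 1 cluster, by 7.53, 6.37 and 6.86 cycles in room air and by 6.59, 6.32 and 5.78 in hyperoxia. That gap was narrower by 0.69 cycles (exact permutation p of 0.2), and the groups overlapped through room air replicate 2. Adjusted over the 3 pairs compared, each p was 0.4, so no unequal change between the miRNAs was shown.

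All 3 miRNAs parted from miR-34a, which is given here as a description, since miR-34a was chosen with its change known. miR-34a, which p53 induces directly and which represses cell cycle and survival genes, had a Ct of 20.87, 21.16 and 20.94 in the room air samples and 19.34, 19.01 and 19.26 under hyperoxia. miR-192 trailed it by 0.50, 0.48 and 1.15 cycles in room air and by 3.95, 2.86 and 3.09 in hyperoxia. For miR-194 the gap was 0.79, 0.93 and 1.88 cycles in room air and 4.31, 3.80 and 3.83 in hyperoxia. For miR-215 it was 8.32, 7.30 and 8.74 cycles in room air and 10.90, 10.12 and 9.61 in hyperoxia. The gap to miR-34a was wider in every hyperoxia sample than in every room air sample for all 3, by 2.59, 2.78 and 2.09 cycles on average, and this difference needs no reference RNA. The 3 gaps share the miR-34a reading of each sample, so they are not separate results. The log2 fold change of miR-34a was 2.55, against a median of -0.135 over the first-card assays, so most assays would part from it. How many other assays had such a gap was not counted.

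**Figure D3:**
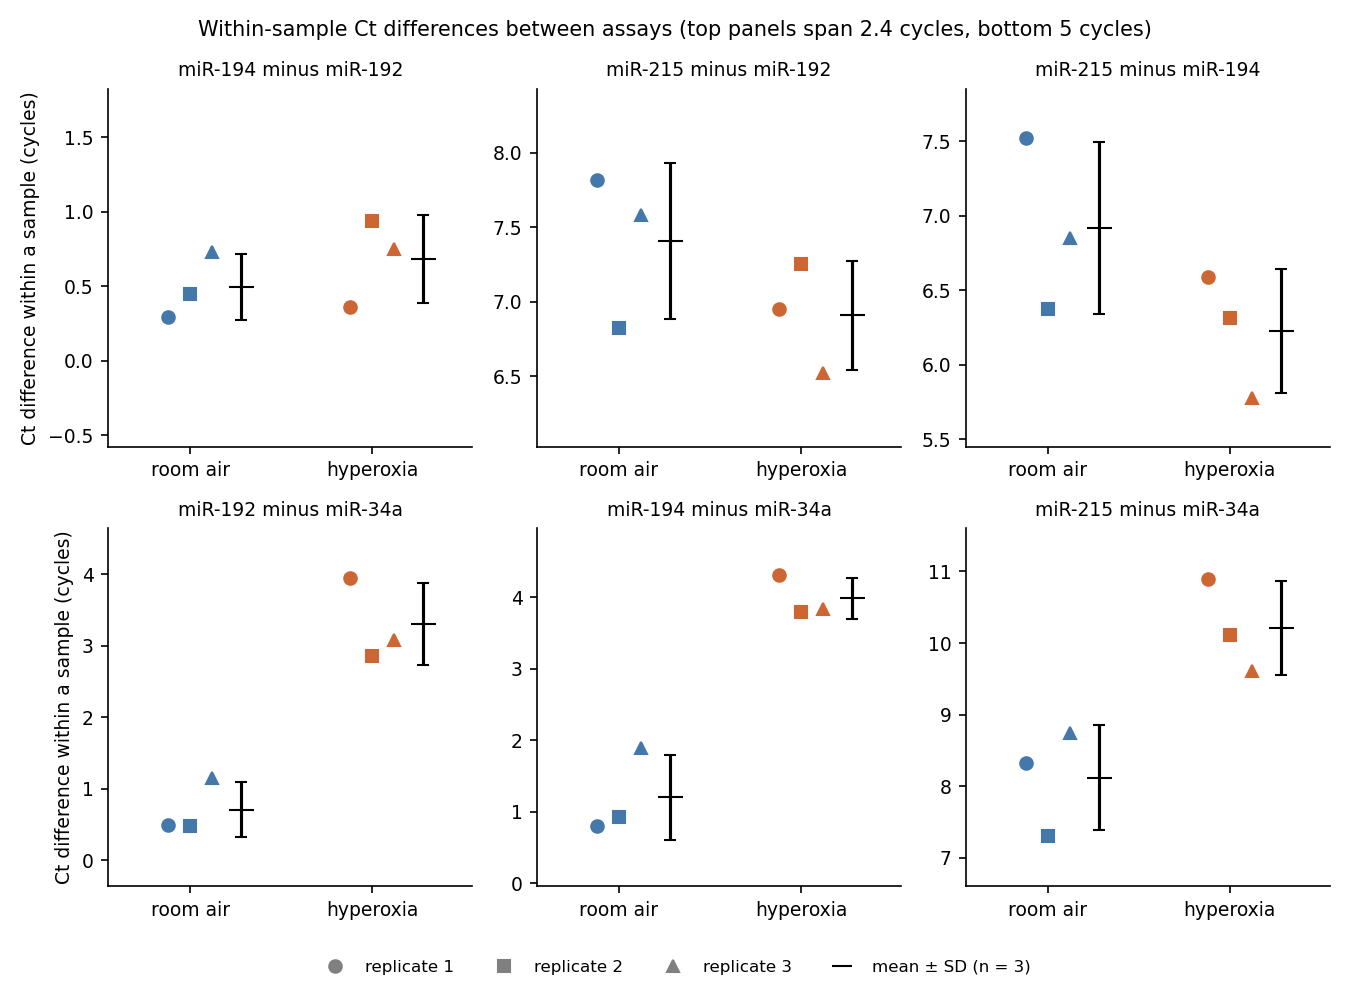
Ct differences between assays within each sample (vertical axes in cycles; top panels span 2.4 cycles, bottom panels 5), with symbols for replicates and black bars for the mean ± SD (n = 3). The differences among miR-192, miR-194 and miR-215 in the top panels overlap between groups, while the gap of each to miR-34a in the bottom panels does not. The bottom panels share the miR-34a reading of each sample.

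The miRNAs reported to respond to p53 lay on both sides of 0. The list held 14 names, miR-192, miR-194 and miR-215 among them, and miR-605 was not analysed here. The remaining names matched 18 assays, of which 13 were first-card and 5 second-card assays. Second-card assays rest on 2 samples per group, because room air replicate 1 and hyperoxia replicate 2 carry the same Ct there in 308 of 309 wells amplified in both, and these values were left out. First-card values of that sample pair were identical in 0 of 312 such wells, so the Ct values of the 3 miRNAs were not among those shared. Their limma SE and adjusted p draw on all assays tested and did move. For miR-194 the limma adjusted p was 0.829, against 0.885 with the shared values kept in both samples and 0.693 with the first card alone. Of the 18 assays, 8 had positive and 10 negative log2 fold changes, with a median of -0.03 (3 positive, 15 negative and a median of -0.60 relative to the control RNAs). Without miR-192, miR-194 and miR-215, 15 assays remained, 7 positive and 8 negative, with a median of -0.03. Over all 551 assays 232 were positive and 319 negative, with a median of -0.12, or -0.62 relative to the control RNAs. By limma 0 of 18 passed over all assays, and 1 was higher and 1 lower at an unadjusted p under 0.05. Of all 551 assays, 20 were higher and 30 lower at that level (9.07%), so the list cannot be told apart from that share.

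The assay at the top was miR-34a, at 2.55 ± 0.28 (SE, limma adjusted p = 0.0723), which did not pass over all assays; it passed under 3 of 22 alternatives, with an adjusted p of 0.0273 when first-card assays formed the whole test. The other miR-34 family assays had lower values. On the first card these were 0.47 ± 0.54 (SE) for miR-34c and -0.48 ± 0.48 for its transcript partner miR-34b-3p, and miR-34c was negative relative to the control RNAs or without normalization. The minor strand assay miR-34c# of the second card was at 1.30 ± 0.89 (SE). Its value ran from 0.041 to 2.58 over the alternatives. Second-card values of 0.62 ± 0.54 and 0.24 ± 0.42 (SE) belong to miR-34b-5p and miR-34b. miR-143 and miR-145, smooth muscle miRNAs of 1 cluster, were at -0.29 ± 0.24 and -0.68 ± 0.23 (SE) on the first card. miR-145 was the assay lower at an unadjusted p under 0.05 (limma adjusted p = 0.477). miR-16, a repressor of the cell cycle, was at -0.70 ± 0.35 and its cluster partner miR-15a at 0.02 ± 0.27 (SE). miR-107 was at -0.22 ± 0.25, and the epithelial miR-200c and miR-141 at -0.12 ± 0.33 and -0.03 ± 0.30 (SE) on the first card. The second-card assays of miR-200c and miR-143 were at 0.12 ± 0.39 and -0.43 ± 0.59 (SE). miR-192 lay in the middle of this list, miR-194 in the lower part and miR-215 in the upper part, all with intervals that include 0.

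**Figure D4:**
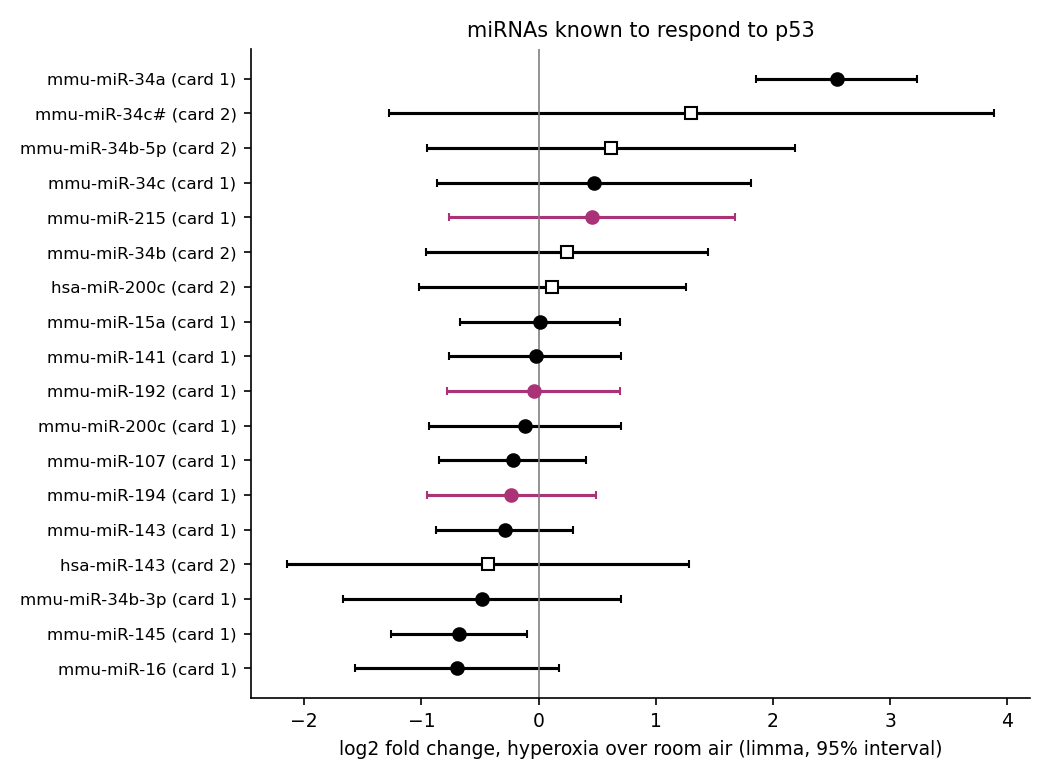
Log2 fold change of hyperoxia over room air with its 95% interval (horizontal axis, limma) for 18 assays of miRNAs known to respond to p53. Filled circles are first-card assays (3 samples per group), open squares second-card assays (2 samples per group), and miR-192, miR-194 and miR-215 are in purple; their intervals include 0, whereas miR-34a stands at 2.55.

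The pattern over the 6 samples was compared between assays by the root mean square distance of log2 relative abundances, each centred on its own mean, among first-card assays that every sample detected, leaving out plate row G. Of 262 other assays, miR-194 was the 8th closest to miR-192, at a distance of 0.232 where the median assay lay at 0.502. Seen from miR-194, miR-192 took place 20, against a median distance of 0.471. The distance is not scaled to spread, so it is small between any assays that vary little, as miR-192 and miR-194 do. miR-215 took place 105 from miR-192 (0.445) and place 149 from miR-194 (0.536), although it shares a cluster with miR-194. Seen from miR-215, whose own values vary more, miR-192 took place 5 and miR-194 place 23.

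Closest to miR-192 were miR-467b (0.124), the low-oxygen marker miR-210 (0.149) and miR-324-3p (0.166). Closest to miR-194 were rno-miR-450a (0.102), miR-30c (0.106) and miR-384-5p (0.112). Closest to miR-215 were miR-501-3p (0.296), miR-129-3p (0.371) and miR-141 (0.421), all at larger distances than for the other two. These distances describe 6 samples and include differences between groups as well as between replicates.

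**Figure D5:**
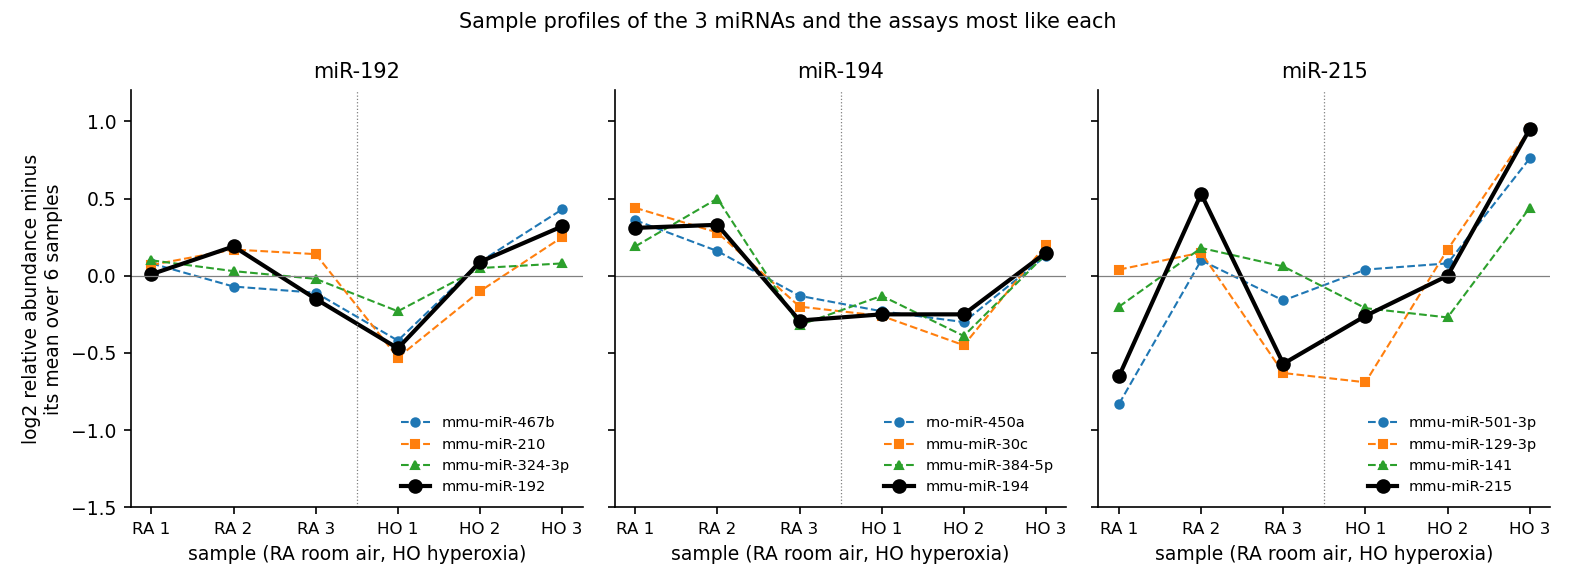
Log2 relative abundance minus its mean over the 6 samples (vertical axis) in each room air (RA) and hyperoxia (HO) sample, for each of the 3 miRNAs (black) and the 3 assays closest to it (dashed). miR-192 is lowest in hyperoxia replicate 1, miR-194 is highest in room air replicates 1 and 2, and miR-215 is highest in hyperoxia replicate 3 and spans the widest range.

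Because these miRNAs are abundant outside the lung, markers of other tissues were read beside them. The lung markers were present, with the endothelial miR-126-3p at a Ct of 11.30 to 13.57 and all 8 first-card epithelial assays read in every sample. The liver miRNA miR-122 was detected in all samples, at a log2 relative abundance of -2.93, -2.64 and -4.30 in the room air samples and -6.90, -2.69 and -2.35 under hyperoxia. It was lowest in hyperoxia replicate 1, where miR-192 was lowest too, and both were highest in hyperoxia replicate 3. Among the assays named above for closeness to miR-192 or miR-215, miR-467b, miR-210 and miR-129-3p were lowest and highest in the same samples. That likeness follows in part from how these assays were chosen. How common the pattern is over all assays was not tested. miR-194 was lowest in room air replicate 3 and miR-215 in room air replicate 1. The part of miR-122 or of liver RNA in the values of miR-192 was not tested. Without hyperoxia replicate 1, miR-192 was at 0.18, miR-194 at -0.18 and miR-215 at 0.70. Pancreas markers were read late: miR-216b had a Ct of 29.50 to 31.82 over the 6 samples, the first-card assay of miR-217 was under 35 in 4 of 6 samples, and miR-216a was at a Ct of 40 in 5 of 6. The summed relative abundance of the 8 epithelial markers ran from 170.2 to 190.0 in room air and from 114.9 to 194.7 in hyperoxia, and that of the endothelial pair from 1111 to 2379 and from 1094 to 1256. The leukocyte sum ran from 92.13 to 119.6 and from 66.53 to 136.9. For 4 smooth muscle and mesenchyme markers the sum was 332.8 to 394.6 in room air and 253.3 to 331.7 in hyperoxia, narrowly without overlap. Of the 6 assays of that set on both cards, 3 had positive and 3 negative log2 fold changes. In whole lung RNA, fewer cells of a type and less of a miRNA per cell cannot be told apart.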

How the data were processed

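The table that the authors deposited lists the threshold cycle (Ct) of 768 wells in each sample, read here as 2 cards of 384 positions, one per primer pool; per the file headers these Ct values are not normalized. The sources used here do not give the instrument, software or Ct threshold. A column of folds, each the ratio of hyperoxia over room air, comes from the authors with no test, per the file headers. Computed here, with R 4.3.3 and limma 3.58.1: Ct values of 35 or more were set to missing, and each Ct was subtracted from the sample's mean Ct over those miRNA assays that every sample used had detected, per card (282 and 249 assays). Assays with at least 2 values in each group were compared by limma (two-sided, Benjamini-Hochberg over 551 assays, threshold 0.05). Values shared between samples on the second card were left out. Single differences used exact permutation tests. The limma fit and the profile distance were checked on simulated data with normal noise. The changes planted for limma were larger than those estimated for the 3 miRNAs. The normalization and the permutation tests were not part of that check. Named assays are the 3 members, the p53-responsive list, the 3 nearest profiles of each member and, from the marker lists, miR-122, miR-126-3p, miR-216a, miR-216b and miR-217, chosen after their values were seen. The members, lists and tests were chosen with earlier results of these data known. The number of samples limits the precision.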

Additional observations from a re-analysis of the deposited data

How the results depend on the processing

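Of 22 alternatives, miR-194 kept its negative sign in all and no member passed the test in any. Several of the 22 cannot alter the estimate of a first-card miRNA detected in all samples, so its sign there was fixed in advance. These include the first card alone, the handling of shared second-card values, plate row G left out, the replicate block and the variance trend. The U6 wells of row B alone, relative to which miR-194 would be positive, were not among the 22 alternatives. With 1 sample left out, miR-192 ran from -0.24 to 0.18 (positive without room air replicate 2 or hyperoxia replicate 1), miR-194 from -0.44 to -0.12 and miR-215 from 0.07 to 0.84. miR-215 was at -0.11 relative to the control RNAs and -0.30 in raw Ct. With no Ct ceiling the 3 were at -0.41, -0.60 and 0.09. A Ct ceiling of 32 put the share of assays later than miR-215 at 9.69%, since fewer late assays then count. The within-sample differences kept their sign when 1 sample was left out (0.06 to 0.35, -0.79 to -0.29 and -0.96 to -0.39 cycles in the order given).

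Over all assays, 1 passed with a Ct ceiling of 32, with no ceiling, with the first card alone and with a variance trend, and 0 to 1 with 1 sample left out (1 without hyperoxia replicate 1). Assays with an unadjusted p under 0.05 numbered 88 with no ceiling, 124 without normalization and 19 to 47 with 1 sample left out. In the p53-responsive list 1 passed, miR-34a, with a Ct ceiling of 32, the first card alone or a variance trend. The median of that list was -0.38 with no ceiling, -0.60 with the control RNAs, -0.77 without normalization and -0.28 to 0.091 with 1 sample left out; the median of all assays was itself -0.62 in the control RNA setting. miR-15a was at -0.36 with no ceiling, -0.0062 with the median reference, -0.55 with the control RNAs, -0.75 without normalization and -0.15 to 0.16 with 1 sample left out. miR-34c was at -0.090 with the control RNAs and -0.29 without normalization, and miR-141 at 0.084 with quantile normalization. With 1 sample left out, miR-141 ran from -0.28 to 0.11, miR-200c from -0.30 to 0.11 and miR-34b-3p from -0.75 to 0.013. The cause of these shifts was not tested.

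Samples of the same replicate number were not alike: deviations from the group means on the first card correlated by -0.336, -0.234 and -0.176 between them. No sample correlated best with its own number. With 3 samples per group these correlations cannot show whether the samples were paired by litter or run. With the replicate number as a block, 0 assays passed and 42 had an unadjusted p under 0.05. The block cannot alter the estimates of miR-192, miR-194 and miR-215 (-0.04, -0.23 and 0.46), which have a value in every sample. Their SE was 0.34, 0.37 and 0.51 with the block, against 0.30, 0.29 and 0.49 without it.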
